A study of Mus musculus with 2 samples.

Results

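The 6 genes described here, Zbtb16, Tbx21, Gata3, Eomes, Zbtb7b and Runx3, encode transcription factors that direct the lineages of invariant natural killer T (iNKT) cells, and are 6 of the 32285 genes counted in the series. They were chosen by name and followed through thymocytes of mice with and without a T cell-specific loss of Kidins220, a scaffold protein that binds the T cell antigen receptor (TCR). iNKT cells carry an invariant TCR that recognises glycolipids on CD1d, and acquire effector functions already in the thymus. PLZF, the product of Zbtb16, is the factor on which their innate-like program depends. T-bet, from Tbx21, is the factor of the interferon-γ-producing iNKT1 cells, GATA3 is needed for interleukin-4 production and for CD4 T cells, and Eomesodermin is a T-box relative of T-bet known from natural killer (NK) and memory CD8 cells. ThPOK, from Zbtb7b, and RUNX3 oppose each other in the choice between the CD4 and the CD8 lineage.

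The cells came from C57BL/6 mice, Ctrl or T-KO. In T-KO mice, floxed Kidins220 (Kidins220 fl/fl) is deleted by a Cre recombinase under the proximal Lck promoter, which acts early in T cell development and so is not limited to iNKT cells. Ctrl mice are drawn in the study as Kidins220 +/fl or Kidins220 +/+ LckCre, so that controls can carry a floxed allele or the Cre. The methods give the age of the mice as a range over all experiments and not for this sort. Thymi of 4 mice were pooled, with 2 pools per genotype. From each pool, CD24+ NK1.1- stage 0 and CD24- CD44+ NK1.1+ stage 3 iNKT cells were sorted with a CD1d tetramer, and the 8 populations were marked with hashtag antibodies and sequenced together as a pooled droplet experiment, with 1 library of transcript 5′ ends and 1 library of hashtags. The labels name a population for 6 of the hashtags 1 to 8, whereas the counts lie on the hashtag rows 11 to 18 of the matrix. The sources used here do not say which row is which hashtag. No row was therefore assigned to a stage or a genotype, rows are not replicates of a group, and no test could be made between Ctrl and T-KO or between stages. Values are given row by row, with exact Poisson or Clopper-Pearson intervals at 95% that cover counting error only.

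Of 16179 barcodes, 12147 passed the limits of 1000 or more genes and 5% or less mitochondrial UMIs, and 10007 of these had at least 80% of at least 10 hashtag counts on 1 of the 8 rows. A row held 577 to 2162 cells and 2283162 to 14601545 unique molecular identifiers (UMIs, single counted transcripts). The odd rows (11, 13, 15 and 17) held 4249 cells with row medians of 6500 to 8068 UMIs, and the even rows (12, 14, 16 and 18) held 5758 cells with row medians of 3258 to 3804 UMIs. Depth thus moved with the odd and even numbers, and its part in the differences between them was not tested beyond the thinning given below. Markers of the labelled cell type did so as well. Klrb1c, which encodes NK1.1, was at 328 to 444 CPM, the UMIs of a gene per 1e6 UMIs, in the even rows and at 4.78 to 6.57 CPM in the odd rows, and Cd24a was at 23.3 to 34.2 CPM and at 313 to 365 CPM. Trav11, the variable segment of the invariant TCR, was at 39.6 to 58.9 CPM in the 3 groups of even-row cells described below and at 0.583 to 0.863 CPM in the 5 groups of odd-row cells. The methods state that the CD1d tetramer stained poorly in this sort. Kidins220 itself was at 19.7, 21.03, 14.5 and 13.9 CPM in rows 11, 13, 15 and 17. It was at 28.4, 35.2, 17.5 and 20.4 CPM in rows 12, 14, 16 and 18. Rows 15 and 17 were thus below rows 11 and 13, and rows 16 and 18 below rows 12 and 14, although some counting intervals overlapped. The labels name stage 0 for hashtags 1, 3 and 5 and stage 3 for 2, 4 and 6. They name Ctrl for hashtags 1 to 4 and T-KO for 5 and 6. By the RNA of the sort markers, Klrb1c and Cd24a, the even rows had the direction of the stage 3 gate and the odd rows that of the stage 0 gate. Whether the rows follow the order of the hashtags was not tested. No row was assigned from these values, and the Kidins220 levels check no genotype label.

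Zbtb16, the PLZF gene, was at 4.72, 5.14, 5.01 and 7.41 CPM in the odd rows 11, 13, 15 and 17. In the even rows 12, 14, 16 and 18 it was at 64.7, 74.7, 74.0 and 74.0 CPM. All even rows lay above all odd rows, and within the even rows the counting intervals overlapped. Tbx21, the T-bet gene, was at 5.13, 5.14, 3.53 and 2.78 CPM in the odd rows. It reached 216, 209, 168 and 173 CPM in the even rows, where rows 12 and 14, with intervals from 204 to 228 and from 198 to 219, lay above rows 16 and 18, with 152 to 186 and 162 to 185. The ratio of the medians of even over odd rows was 14.6 for Zbtb16 and 44.1 for Tbx21.

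Zbtb7b, the ThPOK gene, was at 13.8, 6.37, 6.38 and 5.18 CPM in the odd rows, with row 11 above the others. It was at 52.0, 46.1, 61.8 and 56.9 CPM in the even rows. Runx3, the partner in the CD4 and CD8 choice, was at 75.0, 53.8, 46.8 and 47.6 CPM in the odd rows and at 199, 183, 173 and 175 CPM in the even rows. Both genes were thus higher in all even rows, by 8.55 times for Zbtb7b and 3.53 times for Runx3 in the ratio of medians. Gata3 was at 36.8, 46.6, 50.2 and 62.0 CPM in the odd rows and at 92.0, 84.2, 81.5 and 92.4 CPM in the even rows. The Gata3 levels of odd and even rows did not overlap, but the ratio of medians of 1.82 was the smallest among these 5 genes. Such a lack of overlap was also seen, in either direction, for 26 of 33 other lymphocyte transcription factors tested, as given below.

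Eomes differed from the other 5 genes in its level. It had 104 UMIs in 37 of the 10007 cells, at 2.05, 3.22, 1.02 and 1.30 CPM in the odd rows and 0.165, 0.137, 1.31 and 3.30 CPM in the even rows. These values overlapped, and the highest of them, in row 18, came from 16 UMIs.

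**Figure D1:**
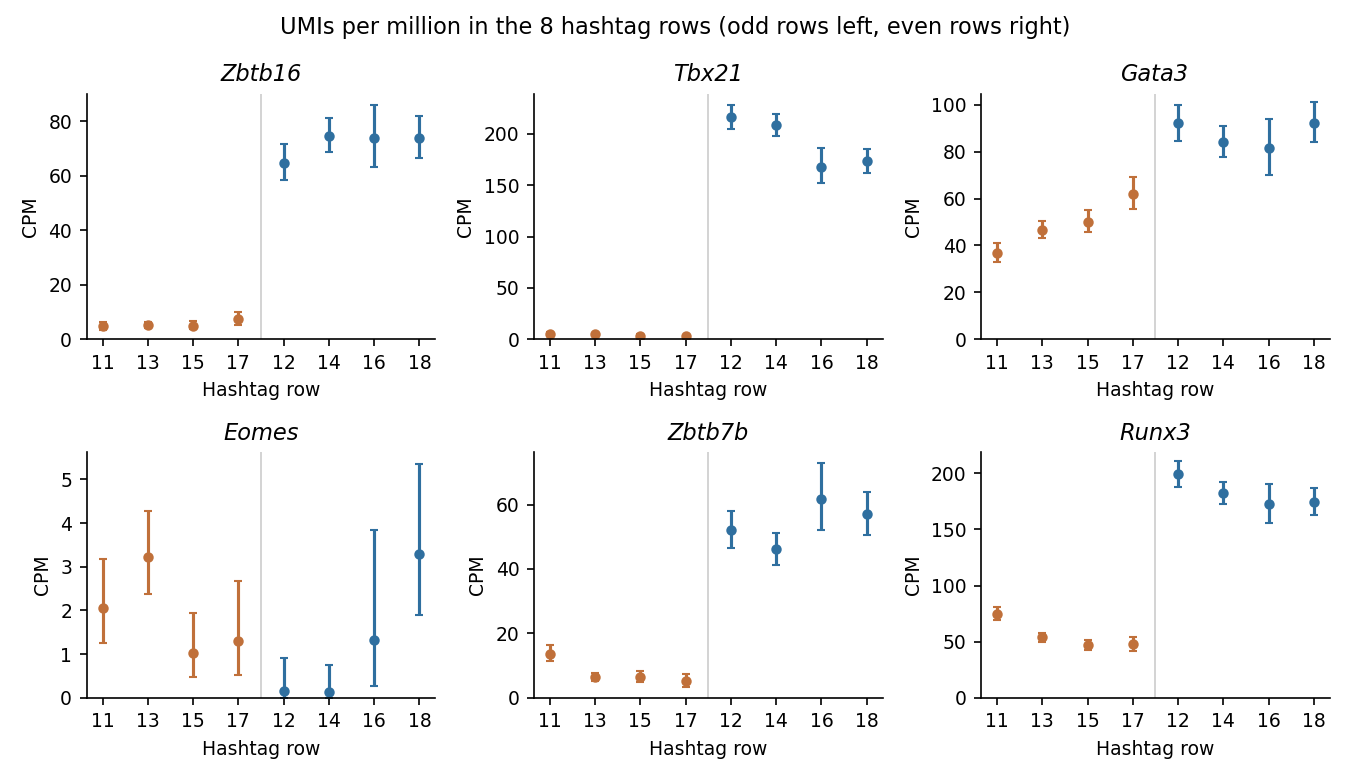
Level of each gene in CPM (linear axes from 0) in the cells of the hashtag rows 11, 13, 15 and 17 (orange) and 12, 14, 16 and 18 (blue), with exact Poisson intervals at 95%. Every even row lies above every odd row for Zbtb16, Tbx21, Gata3, Zbtb7b and Runx3, and Eomes stays at or below 3.30 CPM in all rows. Odd and even rows also did not overlap, in either direction, for 26 of 33 other lymphocyte transcription factors tested. The share over all genes was not counted.

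Over all genes with a mean of at least 10 CPM over the rows, 562 of 8688 (6.47%) were higher in the even rows and 801 (9.22%) were higher in the odd rows, without overlap and by at least 2-fold between the medians on the log2(CPM + 10) scale. Of the 6 factors, 5 passed the filter on low values and 4 met this rule, all with the higher level in the even rows: Zbtb16 with a log2 ratio of 2.48, Tbx21 with 3.81, Zbtb7b with 1.98 and Runx3 with 1.64. Zbtb16, Tbx21 and Zbtb7b had odd-row medians of 5.07, 4.33 and 6.37 CPM and passed the filter through the even rows. For these genes the filter itself favoured the higher level in the even rows, so their direction is no separate support. Gata3, with 0.75, did not meet it. Eomes did not pass the filter.

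For comparison, 40 other transcription factors of T and innate-like lymphocytes were listed. Of these, 33 passed the filter, 7 were higher in the even rows and 10 were higher in the odd rows. Without the 2-fold limit, odd and even rows did not overlap for 26 of the 33, in either direction. Lack of overlap alone was thus common among such factors, and its share over all genes was not counted. Their median log2 ratio was -0.13, beside -0.08 over all genes tested. The even-row group included Zfp683, the Hobit gene, with medians of 199 CPM in the even and 2.91 CPM in the odd rows, Id2, an inhibitor of E proteins, with 997 and 152 CPM, and Maf with 50.7 and 2.15 CPM. The odd-row group was led by Sox4, a factor of early thymocytes, with medians of 313 CPM in the odd and 14.03 CPM in the even rows, followed by Myb with 204 and 25.0 CPM, Ikzf2 with 248 and 39.7 CPM, and Tcf7 with 713 and 199 CPM.

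RefSeq starts were found for 5 of the 6 factors, with 7 windows of 250 bases before a start (GRCm38.p6). 3 of them are shown, of Tbx21, Zbtb7b and Runx3, which were among the factors that were higher in the even rows. For Zbtb7b and Runx3 the window shown is the one that holds a RUNX motif. The other window of each, which holds none, is not shown. Letters in capitals mark the RUNX motif TGTGGT, or its reverse complement ACCACA, the motif that RUNX proteins recognise. The Tbx21 window holds no match.

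Tbx21, chr11:97115332-97115581, minus strand: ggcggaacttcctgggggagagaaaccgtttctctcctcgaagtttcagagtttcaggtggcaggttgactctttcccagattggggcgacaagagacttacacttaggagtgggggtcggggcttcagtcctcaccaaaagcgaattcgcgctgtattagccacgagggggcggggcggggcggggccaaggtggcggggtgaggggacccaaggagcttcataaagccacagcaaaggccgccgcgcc

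Zbtb7b, inner start, chr3:89387672-89387921, minus strand: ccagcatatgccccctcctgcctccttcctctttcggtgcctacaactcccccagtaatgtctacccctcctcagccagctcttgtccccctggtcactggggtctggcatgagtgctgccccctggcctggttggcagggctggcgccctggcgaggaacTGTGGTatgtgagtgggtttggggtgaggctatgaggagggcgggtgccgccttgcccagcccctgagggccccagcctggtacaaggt

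Runx3, distal start, chr4:135120395-135120644, plus strand: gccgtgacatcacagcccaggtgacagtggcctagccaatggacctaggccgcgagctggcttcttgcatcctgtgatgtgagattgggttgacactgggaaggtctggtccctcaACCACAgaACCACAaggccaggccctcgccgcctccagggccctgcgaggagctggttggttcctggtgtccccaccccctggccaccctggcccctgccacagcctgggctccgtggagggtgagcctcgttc

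The RUNX motif stood in 2 of the 7 windows, with 2 matches before the distal start of Runx3 and 1 before the inner start of Zbtb7b, and in 14.05% of all 32851 windows of this length. The GATA motif AGATAA, found in 9.99% of all windows on either strand, and the T-box motif GGTGTGA, found in 3.33%, were in 0 of the 7. These are matches of letters in short windows. Binding was not measured.

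In the GENCODE M21 annotation of GRCm38, Zbtb16 (ENSMUSG00000066687) lies on chromosome 9 (48654297 to 48836222, minus strand), Tbx21 (ENSMUSG00000001444) on chromosome 11 (97098071 to 97115331, minus), Gata3 (ENSMUSG00000015619) on chromosome 2 (9857078 to 9890034, minus), Eomes (ENSMUSG00000032446) on chromosome 9 (118478212 to 118486132, plus), Zbtb7b (ENSMUSG00000028042) on chromosome 3 (89377644 to 89394776, minus) and Runx3 (ENSMUSG00000070691) on chromosome 4 (135120652 to 135177990, plus). Gata3, Eomes, Zbtb7b and Runx3 overlap genes on the opposite strand, and 9230102O04Rik overlaps Gata3 on the same strand. Whether the counting used strand is not given, so that the values of these 4 genes are uncertain where reads fall in an overlap.

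The odd rows held several kinds of cells. They were divided by the first match of Cd79a, a B cell receptor subunit, at 2 UMIs or more, Cst3, a myeloid and dendritic cell gene, at 5 or more, Rag1, the recombinase of immature thymocytes, at 1 or more, and Ikzf2, raised after strong TCR signals, at 2 or more. This gave 810 Cd79a cells, 972 Cst3 cells, 418 Rag1 cells, 1106 Ikzf2 cells and 943 remaining cells. The median UMIs per cell were 6002.5, 10487, 13561.5, 5517.5 and 4159 in this order. The methods state that B cells, myeloid cells and CD4 and CD8 double-positive (DP) and double-negative (DN) thymocytes were removed from the analysis, whereas all cells are kept here. The summed level of 6 B cell markers was 4688 CPM in the Cd79a cells and 17.98 to 40.2 CPM in the other odd groups. The summed level of 8 myeloid and dendritic markers was 20439 CPM in the Cst3 cells, but also 5496 CPM in the Cd79a cells, of which 4530 CPM were H2-Aa, an MHC class II gene that B cells also express. Trdc, the constant segment of the γδ TCR, was at 165, 108 and 206 CPM in the Rag1, Ikzf2 and remaining cells, against 6.79 to 11.7 CPM in the even groups. Tcrg-C1, from the same list of 3 γδ T cell genes, was at 34.2, 111 and 236 CPM, against 38.4 to 42.5 CPM. It was thus not raised in the Rag1 cells. Sox13, the third gene, was at 6.81, 7.82 and 14.97 CPM, against 0.453 to 1.54 CPM. The summed level of 7 DP thymocyte markers was 1525, 445 and 962 CPM, against 53.1 to 88.7 CPM.

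Zbtb16 was highest in the Ikzf2 cells, at 11.3 CPM (9.18 to 13.8), with 17.8, 13.1, 11.2 and 3.41 CPM in rows 11, 13, 15 and 17. In the remaining cells it was at 8.35 CPM (6.34 to 10.8), where row 17 with 22.0 CPM lay above the 4.45 to 7.19 CPM of the other 3 rows. It was at 3.72 CPM in the Cst3 cells, 0.896 CPM in the Rag1 cells and 0.624 CPM in the Cd79a cells. The order of the Ikzf2 and the remaining cells was reversed in row 17, and the pooled intervals of these groups overlapped. The UMIs were held by few cells: of 97 in the Ikzf2 cells, 24 lay in 3 of the 53 cells with a UMI, and of 58 in the remaining cells, 19 lay in 3 of 30.

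Droplets also contain free RNA from other cells. The even rows had most of the Klrb1c UMIs, so the number of UMIs of a gene per Klrb1c UMI was compared between the even rows and each odd group, a reference gene chosen after its values had been seen. For Trav11, this number was 0.118 (0.111 to 0.126) in the even rows and 0.0909 to 0.216 in the 5 odd groups, each with an interval that included the even-row value. For Zbtb16 it was 0.175 (0.166 to 0.185) in the even rows, 0.0909 (0.0237 to 0.250) in the Cd79a cells and 0.185 (0.0557 to 0.488) in the Rag1 cells. In the Ikzf2 cells it was 1.80 (1.27 to 2.55), in the remaining cells 1.21 (0.810 to 1.81) and in the Cst3 cells 1.11 (0.693 to 1.78), each above the ratio of the even rows. In the Cst3 cells 17 of the 41 Zbtb16 UMIs lay in 3 cells.

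Tbx21 was highest not in the Ikzf2 cells but in the Cd79a cells, at 10.9 CPM (8.51 to 13.8), with 9.77, 13.05, 5.45 and 13.8 CPM by row. The Cd79a cells had the highest Tbx21 level in 4 of 4 rows, although by no more than 5.45 against 5.36 CPM in row 15, and only in row 13 was their interval clear of all others. The other 4 groups were at 1.79 to 4.55 CPM. Per Klrb1c UMI, the Cd79a cells had 1.59 Tbx21 UMIs (1.08 to 2.38), against 0.485 (0.467 to 0.504) in the even rows, while the intervals of the Cst3, Rag1, Ikzf2 and remaining cells lay within 0.160 to 1.35 and included the even-row value.

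Gata3 was lowest where Tbx21 was highest. It was at 6.08 CPM in the Cd79a cells, 20.4 in the Cst3 cells, 57.9 in the Rag1 cells, 68.4 in the Ikzf2 cells and 92.5 in the remaining cells. In each of the 4 rows the Cd79a cells were lowest and the Cst3 cells next, and the remaining cells were highest, with 75.4 to 116 CPM. The pooled interval of the remaining cells, 85.5 to 99.97 CPM, overlapped that of the even rows, 84.1 to 92.3 CPM. The Ikzf2 cells were above the Rag1 cells in rows 11, 13 and 17, with 78.0 against 58.4 CPM in row 11, and level with them in row 15, with 59.5 against 60.4 CPM. Per Klrb1c UMI, Gata3 was above the 0.216 of the even rows in each of the 5 groups, from 0.886 (0.561 to 1.396) in the Cd79a cells to 13.4 (9.98 to 18.4) in the remaining cells.

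The odd-row UMIs of Eomes lay mostly in 2 groups. Of its 83 UMIs in the odd rows, 65 were in 17 Ikzf2 cells and 14 in 4 remaining cells, against 4 UMIs in all Cd79a, Cst3 and Rag1 cells. The Ikzf2 cells were at 15.3, 8.94, 3.90 and 3.97 CPM in rows 11, 13, 15 and 17, with a UMI in 3, 4, 6 and 4 cells. A single cell held 18 UMIs, and 3 cells held 45 of the 65. Ncr1, a defining NK receptor, was at 0 in the Ikzf2, remaining and Rag1 cells of the odd rows and at 0.156 and 0.182 CPM in the Cd79a and Cst3 cells. The 4 NK or ILC1 markers, of which Eomes is 1, summed to 61.2 CPM in the Ikzf2 cells, 37.7 in the remaining, 9.49 in the Rag1, 124 in the Cd79a and 399 CPM in the Cst3 cells, and most of each sum was Fcer1g, which myeloid cells express as well.

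Zbtb7b was at 16.4 CPM (14.1 to 19.01) in the Cst3 cells and 9.21 CPM (7.09 to 11.8) in the remaining cells. It was at 5.77 CPM in the Cd79a cells, 2.80 in the Ikzf2 cells and 0.896 in the Rag1 cells. In every row the remaining cells were above the Ikzf2 cells, by 4.91 against 3.91 CPM in row 13 and 14.6 against 2.54 CPM in row 11. Runx3 was highest in the Cd79a and Cst3 cells, with 82.6 and 79.6 CPM, followed by the remaining cells with 48.6, the Ikzf2 cells with 42.0 and the Rag1 cells with 14.3 CPM. The Rag1 cells were lowest in 4 of 4 rows, at 10.7 to 19.9 CPM. They had the highest median depth of the 5 groups. Row 11, which had the highest Runx3 and Zbtb7b levels of the odd rows, also had the largest share of Cst3 cells, 33.2%, against 16.5 to 24.2% in the others. Within the Cst3 cells, row 11 was again the highest, with 94.9 CPM of Runx3 and 22.4 CPM of Zbtb7b. The part of the cell composition in the difference between rows was not tested.

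**Figure D2:**
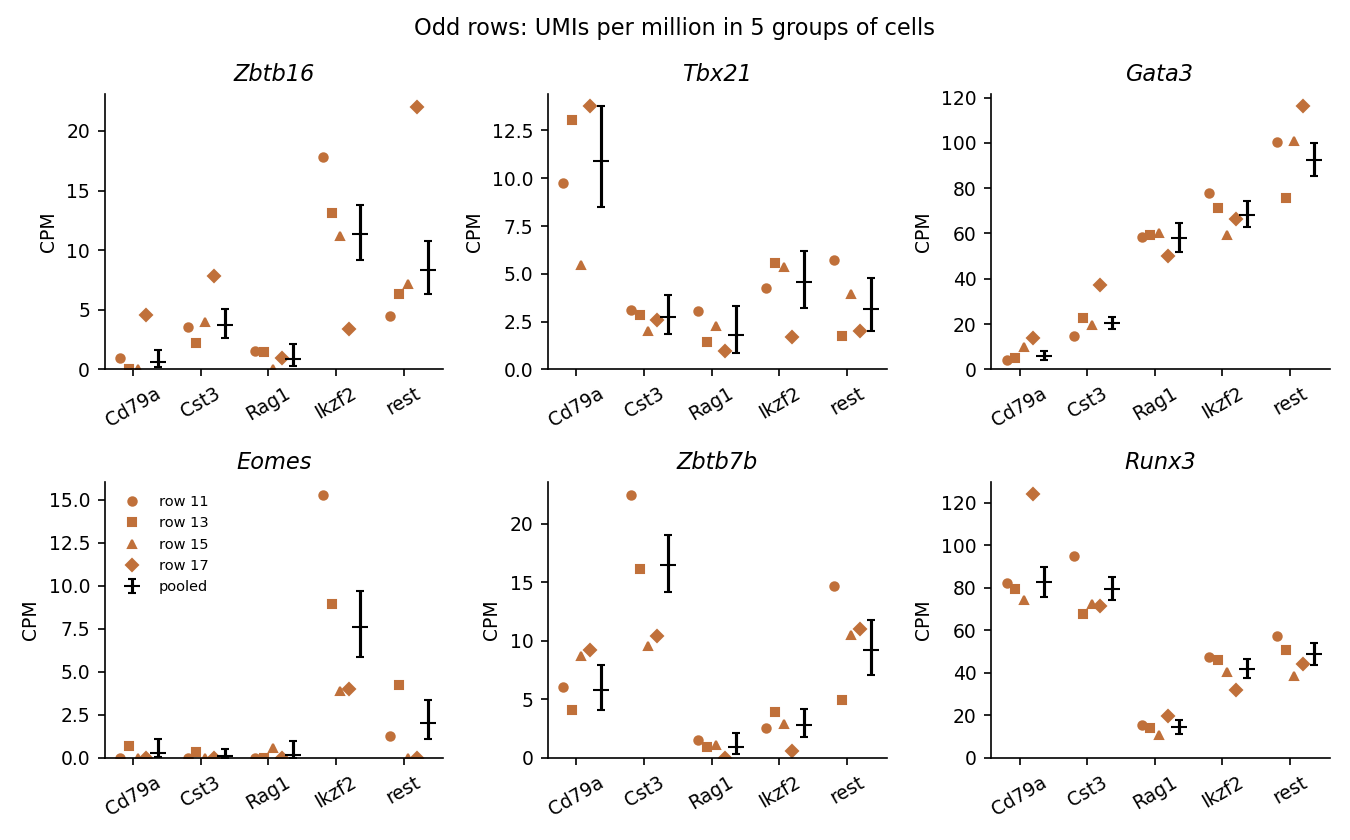
Level of each gene in CPM (linear axes from 0) in 5 groups of odd-row cells, named by the gene that selected them. Points are the 4 rows and the black bar is the pooled level with its exact Poisson interval at 95%. Gata3 rises from 6.08 CPM in the Cd79a cells to 92.5 CPM in the remaining cells, and the pooled Eomes level is above 1 CPM only in the Ikzf2 and remaining cells.

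To compare detection at equal depth, each cell was thinned to 2000 UMIs, averaged over all possible draws, and shallower cells were left out, 216 in the odd and 552 in the even rows. Zbtb16 was then detected in 12.2% of even-row cells (11.3 to 13.1) and 0.963% of odd-row cells (0.689 to 1.32), and without thinning in 20.0% and 2.57%. Tbx21 was detected in 32.3% and 1.21% of the thinned cells, and in 47.8% and 3.58% without thinning. For Gata3, which had nearly the same unthinned shares of 25.7% and 24.6%, the thinned shares were 15.9% (14.96 to 16.97) and 8.83% (7.97 to 9.75). Runx3 was detected in 30.5% and 11.9% of the thinned cells, or 46.1% and 32.8% of all. Zbtb7b was detected in 9.70% and 2.11%, or 16.5% and 6.26% of all. The Cd79a cells, with a median of 6002.5 UMIs, served as a cell type that should lack Zbtb16, and 0.187% of them (0.00319 to 0.701) had a UMI after thinning. The Zbtb16 shares of the Ikzf2 cells, 1.78% (1.09 to 2.80), and of the remaining cells, 1.54% (0.839 to 2.67), lay above this, and the intervals of the Cst3 cells, 0.496% (0.168 to 1.20), and of the Rag1 cells, 0.278% (0.00651 to 1.42), overlapped it. The Ikzf2 and remaining cells had 4.79% and 3.18% without thinning.

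The even rows contained cells with many UMIs of Ccl5, a chemokine of cytotoxic effector cells, and cells with UMIs of Izumo1r, the folate receptor 4 gene found on iNKT2 and precursor cells. The 1051 cells with 4 or more Ccl5 UMIs were set against the 538 cells with 2 or more Izumo1r and 0 Ccl5 UMIs, within each row. Their median depths were 3533 and 3783.5 UMIs. In rows 12, 14, 16 and 18, the Ccl5 cells made up 21.7, 18.9, 15.8 and 13.5% and the Izumo1r cells 5.59, 7.59, 12.5 and 16.1% of the row. A gene was called when it differed the same way in 4 of 4 rows and by at least 1.5-fold in the pooled sums. Of 7992 genes with a mean of at least 10 CPM, 125 (1.56%) were called higher and 92 (1.15%) lower in the Ccl5 cells, and 21.5% had the same direction in all rows.

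Zbtb16 was the single factor of the 6 to be called. In the Ccl5 cells it was at 46.3, 37.3, 38.4 and 25.2 CPM in rows 12, 14, 16 and 18, and in the Izumo1r cells at 130, 132, 137 and 138 CPM. The lowest Izumo1r value was thus above the highest Ccl5 value. The pooled level was 3.52 times higher in the Izumo1r cells (2.89 to 4.30), with a log2 ratio of Ccl5 over Izumo1r cells of -1.58 and row values from -2.08 to -1.32. Over all even-row cells, Zbtb16 went from 81.4 CPM in cells without Ccl5 to 79.9 with 1 Ccl5 UMI, 66.7 with 2 to 3, 42.2 with 4 to 7 and 36.2 CPM with 8 or more. At 2000 UMIs a cell, 7.32% of the Ccl5 cells (5.81 to 9.08) and 21.6% of the Izumo1r cells (18.1 to 25.3) had a Zbtb16 UMI, and 12.7% and 36.4% without thinning. The median depth of the 5 bins lay between 3312.5 and 3559.5 UMIs.

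Tbx21 was at 228, 205, 197 and 197 CPM in the Ccl5 cells and at 242, 179, 131 and 163 CPM in the Izumo1r cells of the same rows. It was higher in the Ccl5 cells in 3 of 4 rows, with a pooled fold of 1.20 (1.06 to 1.36), and did not meet the rule. Runx3 was at 197, 184, 179 and 158 CPM in the Ccl5 cells and at 156, 167, 134 and 141 CPM in the Izumo1r cells. It was higher in the Ccl5 cells in 4 of 4 rows, but its pooled fold of 1.23 (1.08 to 1.402) was below 1.5. Gata3 was at 84.7 CPM in both groups, with a fold of 1.00 (0.835 to 1.20). Zbtb7b was at 52.6 and 52.5 CPM, with a fold of 1.00 (0.794 to 1.27) and row differences in both directions. Eomes had 5 UMIs in the Ccl5 cells and 0 in the Izumo1r cells, where the floor of 3 counts is 1.36 CPM and the exact interval reaches 1.67 CPM, and 16 of its 21 even-row UMIs came from row 18.

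Of the 4 NK or ILC1 markers, Ncr1 was at 12.2 CPM in the Ccl5 cells, 3.503 in the remaining even cells and 0 in the Izumo1r cells. Fcer1g, at 567 and 302 CPM, and Klrk1, at 471 and 263 CPM, made up nearly all of the list's sum of 1051 CPM in the Ccl5 and 564 CPM in the Izumo1r cells, and they were at 398 and 400.4 CPM in the remaining even cells. Trav11 was at 39.6 and 58.9 CPM and Klrb1c at 367 and 465 CPM. The part of these in the Zbtb16 difference was not tested.

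**Figure D3:**
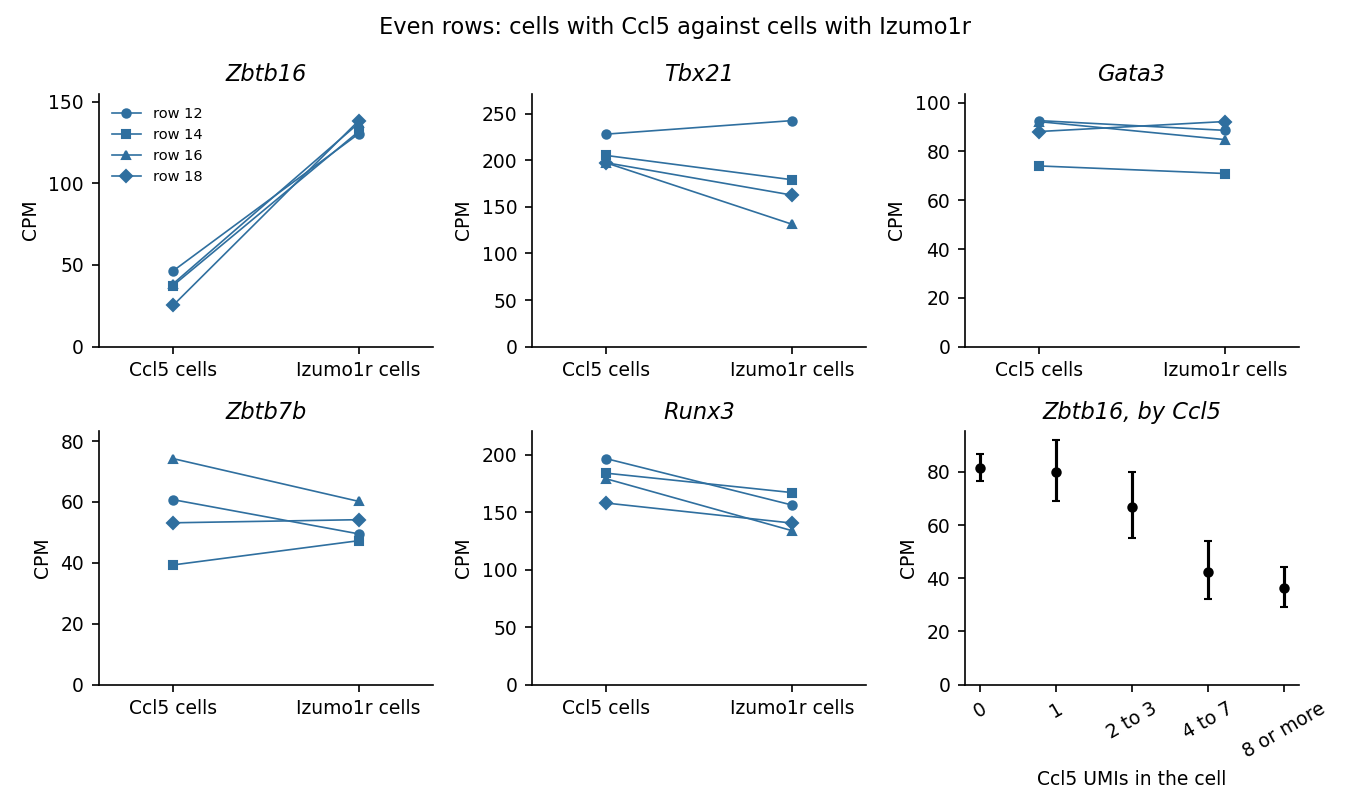
Level in CPM (linear axes from 0) of 5 genes in the Ccl5 and Izumo1r cells of each even row, joined by row, and of Zbtb16 in all even-row cells by the number of Ccl5 UMIs in the cell, with exact Poisson intervals at 95%. Zbtb16 is higher in the Izumo1r cells of all 4 rows, at 130 to 138 against 25.2 to 46.3 CPM, and the pooled Gata3 level is 84.7 CPM in both.

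Of the 40 other factors, 30 passed the filter in this comparison, 5 were lower and 1 was higher in the Ccl5 cells, and their median log2 ratio was -0.21, beside -0.02 over all genes tested. The lower ones were Tox, a factor of thymocyte selection, at 34.6 against 97.3 CPM, Myb at 16.7 against 46.2 CPM, Id3, an inhibitor of E proteins induced by TCR signals, at 57.5 against 131 CPM, and Ikzf2 at 29.1 against 52.5 CPM, with Maf, at 36.9 against 62.0 CPM, named after its values were seen because it completes the 5. Foxo1, which maintains quiescence and homing receptors, was higher, at 77.0 against 47.1 CPM.

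Whether the factors shared cells was examined by counting cells with a UMI of both genes of a pair after thinning and dividing by the number given by the 2 shares within each row and group. A ratio of 1 means that detecting 1 gene tells nothing about the other. In the even rows, 10 of the 15 pairs had an expected number of at least 5 cells. Their ratios ranged from 0.920 to 1.17, and 10 of 10 intervals included 1. Zbtb16 and Tbx21 were found together in 207 cells on average against 202 expected, a ratio of 1.02 (0.888 to 1.17). Tbx21 and Gata3 had a ratio of 0.9505 (0.836 to 1.07). Zbtb7b and Runx3, which oppose each other in conventional T cells, had a ratio of 1.01 (0.856 to 1.18), with 155 cells against 154 expected. At this depth neither exclusion nor sharing was detectable for these pairs.

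Pairs with a known target or partner were treated in the same way. Zbtb16 and Icos, the costimulatory receptor of iNKT2 and follicular helper cells, were found together in 155 even-row cells against 123 expected, a ratio of 1.27 (1.07 to 1.48), with a ratio above 1 in 4 of 4 rows. At 1000 and 3000 UMIs and without thinning, the ratio was 1.36, 1.20 and 1.21. Zbtb16 and Il4, the interleukin-4 gene, had a ratio of 1.32 (0.981 to 1.71) at 2000 UMIs, and of 1.28 (1.08 to 1.501) without thinning. Tbx21 had ratios of 1.01 with Cxcr3, 1.02 with Il2rb and 1.08 with Ifng, each with an interval that included 1, although that of Ifng did not without thinning (1.02 to 1.15). Runx3 had ratios of 0.959 with Cd8a, 0.996 with Cd8b1 and 1.04 with Cd4, and Zbtb7b had a ratio of 0.919 (0.577 to 1.39) with Cd4, again with intervals that included 1. In the odd rows at 2000 UMIs, Runx3 had ratios of 0.791 with Cd8a, 0.803 with Cd8b1 and 0.959 with Cd4. Tbx21 and Il2rb had 1.59, and each of these intervals included 1. Zbtb7b and Cd4 had 4.94 expected odd-row cells, below the 5 required, and 13.7 were found on average. Without thinning, which leaves cells at unequal depth, 31 odd-row cells had both against 18.5 expected, a ratio of 1.67 (1.14 to 2.37). Other unthinned odd-row ratios were 0.683 (0.527 to 0.871) for Runx3 and Cd4 and 1.58 (1.20 to 2.04) for Tbx21 and Il2rb. Zbtb16 and Icos had 1.90 (1.11 to 3.04). The remaining odd-row pairs with at least 5 expected cells had intervals that included 1. Zbtb16 and Il4 had under 5 expected odd-row cells with and without thinning, so no ratio is given. Both were found in 11 odd-row cells without thinning, of which 9 were Ikzf2 or remaining cells, and in 1.92 on average at 2000 UMIs.

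**Figure D4:**
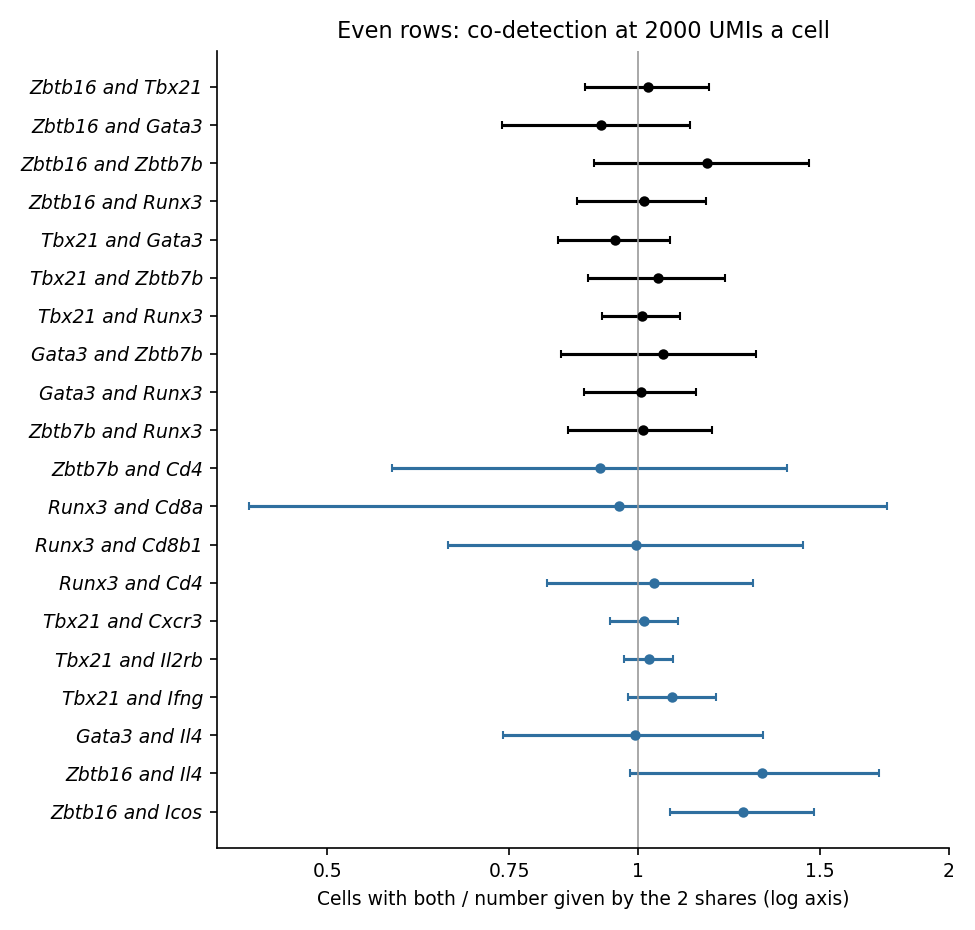
Number of even-row cells with both genes of a pair, divided by the number given by the 2 shares within row and group, at 2000 UMIs a cell (log axis), with exact Poisson intervals at 95% for the rounded number of cells. Black points are pairs of the 6 factors and blue points are pairs with a partner gene. All intervals include 1 except that of Zbtb16 and Icos, at 1.27 (1.07 to 1.48).

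The genes whose levels were most like those of each factor were sought over 32 points, the 5 groups of each odd row and the 3 groups of each even row, among 9306 genes. These points share 1 library and the split into odd and even rows, and the correlations are a description. Icos (r = 0.96), Fam174b and Il4 were nearest to Zbtb16, and Klrb1c (r = 0.99), Arl4d and Ppm1j were nearest to Tbx21. Skap1 (r = 0.97), Lck and Srpk1 were nearest to Gata3. Fxyd5 (r = 0.97), Klrk1 and Padi2 were nearest to Zbtb7b, and Junb (r = 0.98), Cd82 and Tnfaip8l2 were nearest to Runx3. Eomes had Klrb1a (r = 0.83), Prss23 and Crtam, a pattern that rests on few cells. Among the factors themselves, Tbx21 and Zbtb7b had r = 0.92, Zbtb7b and Runx3 had r = 0.90 and Zbtb16 and Tbx21 had r = 0.88. Gata3 and Runx3 had r = 0.11.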

How the data were processed

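Thymocytes of Ctrl and T-KO mice, both C57BL/6, were sorted, hashed and pooled by the authors. Per the labels and the study's methods, the authors made the deposited counts, UMIs per gene and barcode with the hashtag antibodies as extra features, with Cell Ranger 6.0.0 and mm10. Here these counts were used as deposited, without the study's clustering and without Scrublet. A barcode needed at least 1000 genes, at most 5% mitochondrial UMIs and at least 80% of at least 10 hashtag UMIs on 1 row. This removes barcodes whose hashtag UMIs are spread over rows. Doublets between rows with unequal hashtag counts can still pass, and those within a row remain. Other hashtag rows held 0.0734% of hashtag UMIs. No column other than these was used.

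Levels are UMIs of a gene over all UMIs of the cells (CPM), with exact Poisson intervals at 95%, and shares have Clopper-Pearson intervals. The intervals assume independent molecules and cover counting error only. Because rows have no label, no test was run. Ratios are on the log2(CPM + 10) scale, which understates changes of low genes, and genes needed a mean of 10 CPM. Rows were compared by overlap and a 2-fold ratio of medians, and the even split by 4 of 4 rows and a 1.5-fold ratio. Shares were thinned to 2000 UMIs as the exact average over all draws, a choice made after single draws were seen to disagree. Intervals of averaged numbers of cells are those of the rounded number, and a ratio for a pair needed 5 expected cells. A count of 0 was given a floor of 3 counts beside its exact interval. Genes alike in level needed 20 CPM in a group of at least 20 cells, and the 3 with the highest Pearson r were named for each factor. The text names the 6 factors, the genes that define groups, and at most 4 of the 40 other factors in each direction by size, with 1 exception that is stated. The members and all lists were chosen with earlier results of these data known.

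Alternatives were other limits on genes, mitochondrial UMIs and hashtag UMIs, HTODemux assignment, a pseudocount of 1 CPM, the removal of ribosomal, mitochondrial and Gm genes, the mean of log-normalized values, other thinning depths, and leaving out each row. Groups of cells were also cut at other limits of Ikzf2, Cst3, Ccl5 and Izumo1r. Python 3.11.15 with numpy 2.4.6, scipy 1.17.1 and pandas 2.3.3 and R 4.3.3 with Seurat 5.3.0 were used, and scripts were tested on simulated data.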

Additional observations from a re-analysis of the deposited data

Results flagged for a closer look

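In 3 of 12 series of 4 rows, 1 row stood apart from the others by Dixon's gap ratio, the gap to the nearest row over the whole range, where chance flags about 1 in 20. Zbtb16 in the odd rows had a ratio of 0.845, with row 17 at 7.41 CPM above the 4.72 to 5.14 CPM of the other 3 rows. In row 17, 22 of the 40 Zbtb16 UMIs came from 8 of the remaining cells. Zbtb16 in the even rows had a ratio of 0.931, with row 12 at 64.7 CPM below the 74.0 to 74.7 CPM of the others, and the counting intervals of row 12 and of each other row overlapped. Zbtb7b in the odd rows had a ratio of 0.861, with row 11 at 13.8 CPM above the 5.18 to 6.38 CPM of the others. Of the 134 Zbtb7b UMIs of row 11, 94 came from its Cst3 cells.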

How the results depend on the processing

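No ratio of a factor that met its rule changed sign under any alternative. Signs changed in Gata3 and Zbtb7b between Ccl5 and Izumo1r cells, where both ratios were 0.00, and in Eomes between odd and even rows, by less than the spread between rows except as given below. The log2 ratio of even over odd rows ranged over 14 settings from 2.45 to 3.63 for Zbtb16, 3.68 to 5.17 for Tbx21, 0.69 to 0.92 for Gata3, 1.73 to 2.91 for Zbtb7b and 1.33 to 1.80 for Runx3, and the Zbtb16 ratio of Ccl5 over Izumo1r cells over 13 settings from -1.79 to -1.31. Ratios that moved beyond the spread between rows, and numbers of called genes that moved, were as follows. The cause was not tested except where the scale itself changed. With a pseudocount of 1 CPM, even over odd rows gave 3.63 for Zbtb16, 5.17 for Tbx21, 2.91 for Zbtb7b and -0.62 for Eomes, the Ccl5 comparison gave 1.17 for Eomes, and 208 genes were called higher and 189 lower in the Ccl5 cells. Without ribosomal, mitochondrial and Gm genes, even over odd rows gave 2.75 for Zbtb16 and 4.14 for Tbx21. With at most 4000 genes a cell, Runx3 gave 1.33. The mean of log-normalized values is on the natural log scale, where even minus odd rows gave 0.281 for Zbtb16, 0.693 for Tbx21, 0.116 for Gata3, 0.193 for Zbtb7b and 0.394 for Runx3, and Ccl5 minus Izumo1r cells gave -0.362 for Zbtb16 and 0.112 for Runx3. With Izumo1r cells set at 1 UMI or more, 70 genes were higher in the Ccl5 cells, and the log2 ratio was -0.078 for Gata3 and 0.056 for Runx3. Levels and shares were set against their counting intervals instead. Levels in rows left the interval in 46 cases and stayed in 194. Levels in the odd groups, also cut at lower limits of Ikzf2 and of Cst3, left it in 23 cases and stayed in 67. They thus depend in part on the cut. Shares at other depths left it in 31 cases and stayed in 5.

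Leaving out each row in turn gave 543 to 591 genes higher in the even rows, 745 to 857 higher in the odd rows, and 128 to 170 higher and 99 to 145 lower in the Ccl5 cells, where 145 were called without row 14. With an even row left out, the same direction was needed only in the rows that remained, which is easier to meet than 4 of 4. The Ccl5 counts thus lay above the 125 and 92 of all rows in part by the rule. Without thinning, 1 pair of factors, Tbx21 and Zbtb7b at 1.10 (1.01 to 1.20), had an interval above 1. In 20 single draws, an alternative added after the data were seen, 6 had a pair with an interval above 1 and 2 had a pair below 1. The Ccl5 and Izumo1r cells were compared within each row, and no test was fitted over the 4 rows, which are not replicates of 1 group. The depth limits Eomes, with 104 UMIs in all, and pairs with few expected cells.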
